A study of Mus musculus with 6 samples.

Results

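The hemidesmosome and laminin-332 genes are 9 genes given by name, whatever their values: *Itga3*, *Itga6*, *Itgb4*, *Lama3*, *Lamb3*, *Col17a1*, *Dst*, *Plec* and *Cd151*. All 9 were found among the 47643 gene IDs of the files, and all 9 were among the 15792 genes tested. The RNA came from organoids of the mouse submandibular salivary gland (mSGOs), clusters of many cells that form in Matrigel from dissociated gland cells. The comparison asked which of these genes differed between 5-day and 7-day mSGOs. Both groups came from the same 3 C57BL/6 mice, which were 8 to 12 weeks old and, per the methods of the study, female. No group was irradiated or treated. All mSGOs were kept in a medium named WRY, with EGF, FGF2, N2, insulin, dexamethasone, the ROCK inhibitor Y27632, R-spondin1-conditioned medium and Wnt3a-conditioned medium. Matrigel is itself a basement membrane extract that contains laminin protein, and the libraries measure only the RNA of the cells. Of cell types outside the epithelium little RNA was counted: markers of fibroblasts summed to at most 1.96 CPM in a library and those of endothelium to at most 1.15 CPM, with *Col1a2*, *Col3a1*, *Lum*, *Cdh5* and *Tek* at 0 in all 6 libraries. Schwann cell markers summed to at most 3.30 CPM, with *Sox10* at 0. Macrophage markers summed to 8.03 to 10.7 CPM at day 5 and 9.30 to 13.9 CPM at day 7, with *Adgre1*, *Csf1r*, *Lyz2*, *C1qa* and *C1qb* at 0. Of the macrophage markers, *Cd68* passed the threshold described below, higher at day 7 (1.00 and 5.27 CPM on average). *Cd14*, which made up most of the sum at day 5, averaged 8.13 CPM at day 5 and 5.65 CPM at day 7 and did not pass. CPM are counts scaled to a common library size of 1000000. Epithelial markers (*Epcam*, *Cdh1* and others) summed to 1778 to 1946 CPM at day 5 and 2016 to 2417 CPM at day 7.

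Hemidesmosomes rivet the basal side of an epithelial cell to the basement membrane. The integrin α6β4 (*Itga6*, *Itgb4*) and the collagen XVII (*Col17a1*) cross the membrane, the plakins BPAG1 (*Dst*) and plectin (*Plec*) tie them to keratin filaments inside the cell, and the tetraspanin CD151 (*Cd151*) binds laminin-binding integrins in the membrane. Outside the cell lies laminin-332, a trimer with an α3 chain (*Lama3*) and a β3 chain (*Lamb3*), which is also bound by the integrin α3β1 (*Itga3*, *Itgb1*). In salivary ducts these genes are known from the basal cells that touch the basement membrane.

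None of the 9 genes passed the threshold between the days, which was an edgeR adjusted p under 0.05 with an absolute log2 fold change over 0.6. Of all genes tested, 12.0% passed it, 7.22% higher and 4.82% lower at day 7. These were 1140 and 761 genes, or 950 and 1008 with library totals only as scaling. At an unadjusted p under 0.05 the count was also 0 of 9, against 25.8% of all genes. DESeq2 and limma voom called 0 of 9 as well, where they called 9.00% and 11.1% of all genes, as did glmTreat, which tests against the minimum change itself and called 3.94%. The genes were abundant, with 208 to 4017 counts per gene and library, and lay among the top 0.222% to 9.71% of tested genes by level. The fitted log2 fold changes ran from -0.32 to 0.28, with 4 above and 5 below 0. Their median was -0.11, against -0.0073 over all genes tested. The median size without sign was 0.23, against 0.35 over the 6174 tested genes that averaged 20 CPM or more, of which 18.9% passed the threshold. A p that misses the threshold does not show equal levels: the 95% intervals of the 9 genes reached from 0.613-fold to 1.64-fold, and those of 5 genes extended past a log2 fold change of 0.6 in size. In bulk RNA, fewer cells of a type and less RNA per cell cannot be told apart. Beside these values, the summed level of the basal duct markers *Krt5* and *Krt14* was 11608 to 15605 CPM at day 5 and 7963 to 12960 CPM at day 7. These ranges overlapped, and neither gene passed the threshold (edgeR adjusted p = 0.140 and 0.580). Of the other basal keratins described below, *Krt15* passed it higher (log2 fold change 1.32) and *Krt17* did not pass. The 6 luminal duct markers summed to 1271 to 1525 CPM at day 5 and 1656 to 2784 CPM at day 7, where *Krt19*, *Cldn4* and *Clic1* passed the threshold higher, *Krt8* passed it lower (log2 fold change -0.65), and *Krt7* and *Krt18* did not pass. The cycling markers *Mki67* and *Top2a* summed to 968 to 1126 CPM at day 5 and 367 to 573 CPM at day 7. Myoepithelial markers summed to 1.51 to 2.16 CPM at day 5 and 7.34 to 11.8 CPM at day 7. Of these, *Acta2* passed the threshold higher, and *Cnn1*, *Tagln* and *Mylk* did not pass. Acinar markers summed to 5.02 to 10.1 CPM at day 5 and 9.97 to 25.0 CPM at day 7, and *Aqp5* did not pass. The part of these cell types in the values below was not tested.

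The sequences before 3 of the genes are shown because they stand for the ligand, a receptor and the transmembrane collagen, and because *Lamb3* was the only one of the 9 genes whose days did not overlap. Each is the 250 bases before a start site in RefSeq (table build GRCm38.p6), and each matched the GRCm39 genome, the build of the files, exactly once. They are the first *Lamb3* window at chr1:192984052-192984301 on the plus strand, the first *Itga3* window at chr11:94967541-94967790 on the minus strand and the *Col17a1* window at chr19:47680482-47680731 on the minus strand, in GRCm39. Coding transcripts of GENCODE vM39 start within 100 bases of the end of each. Capitals mark the GC box GGGCGG, on either strand.
Lamb3: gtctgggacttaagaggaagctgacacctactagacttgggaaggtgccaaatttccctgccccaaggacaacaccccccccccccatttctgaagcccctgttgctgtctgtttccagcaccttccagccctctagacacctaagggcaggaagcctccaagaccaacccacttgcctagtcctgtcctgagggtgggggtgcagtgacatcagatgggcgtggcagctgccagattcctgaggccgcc
Itga3: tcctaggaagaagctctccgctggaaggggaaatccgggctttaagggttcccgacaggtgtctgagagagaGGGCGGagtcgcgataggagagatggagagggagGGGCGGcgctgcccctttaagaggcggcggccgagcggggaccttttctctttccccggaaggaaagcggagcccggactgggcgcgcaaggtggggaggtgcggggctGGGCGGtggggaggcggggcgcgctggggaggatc
Col17a1: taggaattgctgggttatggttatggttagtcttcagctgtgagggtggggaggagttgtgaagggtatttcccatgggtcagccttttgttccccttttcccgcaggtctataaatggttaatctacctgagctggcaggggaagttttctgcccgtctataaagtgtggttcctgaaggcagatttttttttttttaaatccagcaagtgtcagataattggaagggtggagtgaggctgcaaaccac
Windows in that table exist for 5 of the 9 genes, 9 in all: *Itga3*, *Lamb3*, *Col17a1*, *Dst* and *Cd151*. The GC box was in 4 of the 9 windows, against 32.7% of all 32851 windows. The AP-1 motif TGANTCA, searched on both strands, was in 0 of 9, against 6.75%, and the TEAD motif GGAATG in 1 of 9, against 12.6%. The 3 motifs were chosen after values were seen, and a match is a run of letters, not a site. The GC content was 58.8% in the *Lamb3* window and 67.6% in the *Itga3* window, and lower in the *Col17a1* window.

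The integrin chains α6 and β4 form 1 receptor, and their RNAs lay on opposite sides of 0. *Itga6* (ENSMUSG00000027111, chr2:71575960-71689757, plus strand) encodes α6, which also pairs with β1. It was at 1202, 1378 and 1272 CPM at day 5 and at 1541, 1271 and 1860 CPM at day 7 in mice 1, 2 and 3. Mice 1 and 3 were higher at day 7 and mouse 2 was lower, so the days overlapped. The log2 fold change of *Itga6* was 0.28 ± 0.19 (SE, n = 3 per day, edgeR adjusted p = 0.375). *Itgb4* (ENSMUSG00000020758, chr11:115865333-115899239, plus strand) encodes β4, whose long cytoplasmic tail binds plectin. It was at 358, 405 and 389 CPM at day 5 and at 340, 254 and 389 CPM at day 7. The 3 mice were all lower at day 7, mouse 3 by less than 1 CPM, and the days overlapped. The fitted log2 difference of *Itgb4* was -0.23 ± 0.20 (SE) at an edgeR adjusted p of 0.487.

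**Figure D1:**
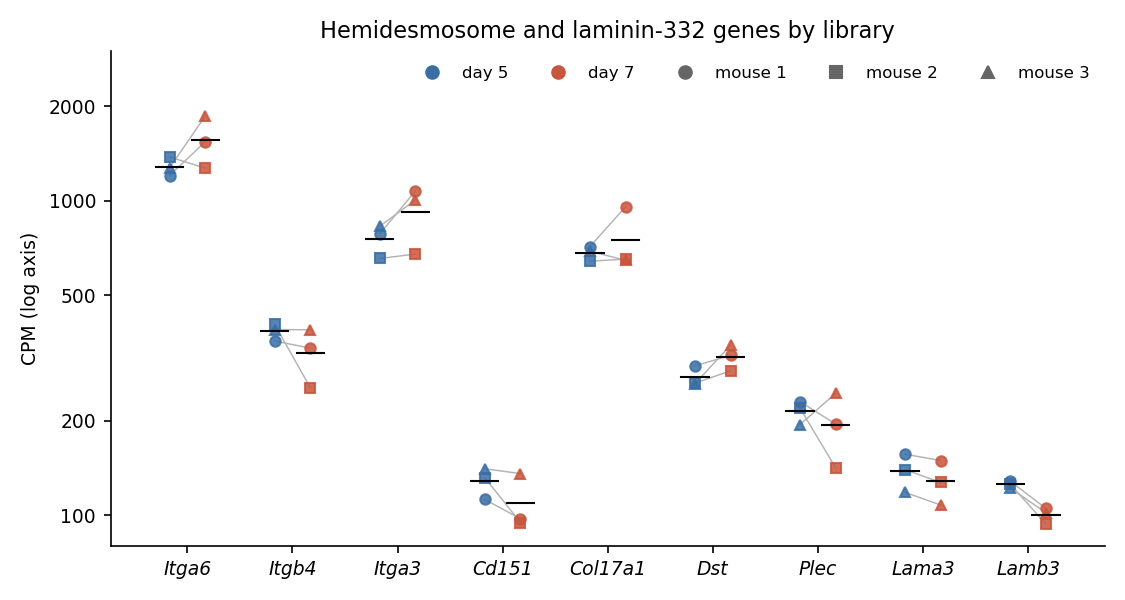
Level of each of the 9 genes in CPM (log axis) in the 3 day 5 libraries (blue) and the 3 day 7 libraries (red), with symbols and thin lines for the mouse and a black bar for the mean of the day. *Itga6* was the highest and *Lamb3* the lowest at both days, and the days did not overlap for *Lamb3*, from 122 to 128 CPM at day 5 and from 93.7 to 105 CPM at day 7.

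Within a library the balance of the α6 and β4 RNAs differed between the days by more than the spread between libraries. There were 3.36, 3.41 and 3.27 *Itga6* counts per *Itgb4* count at day 5 and 4.53, 4.99 and 4.78 at day 7. Every day 7 ratio was above every day 5 ratio. Of single genes, 30.9% of all tested had days that did not overlap, and the share among ratios of other gene pairs was not computed. The mean log2 ratio of *Itga6* to *Itgb4* was 0.51 higher at day 7, or 1.43-fold, and higher in 3 of 3 mice. The exact two-sided permutation p was 0.1, the smallest that 3 against 3 libraries allow, and 0.2 after Benjamini-Hochberg adjustment over the 6 ratios computed, of which 5 are given, so p under 0.05 was out of reach. How many 3′ reads a molecule of each gene gives was not measured, so a ratio compares the days and not the number of molecules of 2 genes. Scaling between libraries does not enter it. For *Itga6* GENCODE lists 13 coding transcripts with 7 separate 3′ ends, and for *Itgb4* 12 with 2. Counts per gene do not separate these ends, and their part in the ratio was not tested.

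The other laminin receptor chain and its tetraspanin partner gave values that overlapped between the days. *Itga3* (ENSMUSG00000001507, chr11:94935296-94967682, minus strand) encodes α3, the partner of β1. It was at 784, 655 and 829 CPM at day 5 and at 1075, 677 and 1006 CPM at day 7. Each mouse was higher at day 7, yet mouse 2 at day 7 stayed below mice 1 and 3 at day 5. Fitted on the log2 scale, *Itga3* differed by 0.28 ± 0.21 (SE) at an edgeR adjusted p of 0.402. The ratio of *Itga3* to *Itga6* counts was 0.652, 0.475 and 0.652 at day 5 and 0.698, 0.533 and 0.541 at day 7. The mean log2 difference of that ratio was -0.0022 (exact permutation p = 1). *Itgb1*, the partner chain of *Itga3* and no member of the list, was at 534, 462 and 469 CPM at day 5 and at 675, 549 and 611 CPM at day 7. All its day 7 values were above those of day 5, as for 15.4% of all genes tested, and the test was not passed (log2 fold change 0.32 ± 0.18 SE, edgeR adjusted p = 0.274). *Cd151* (ENSMUSG00000025510, chr7:141047256-141052572, plus strand) was at 112, 132 and 141 CPM at day 5 and at 97.4, 94.8 and 136 CPM at day 7. Each mouse was lower at day 7, with overlap between the days, and the log2 fold change of *Cd151* was -0.23 ± 0.20 (SE, edgeR adjusted p = 0.499). Of the 9 genes, all but *Col17a1* share exonic bases with a gene annotated on the other strand, among them *Cd151* with *Polr2l*, *Itgb4* with *Galk1*, *Lamb3* with *G0s2* and *Dst* with *Bend6*, and the rest with predicted genes. Whether reads were counted by strand is not given in the sources used here, so a share of these reads is uncertain.

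*Col17a1* (ENSMUSG00000025064, chr19:47634783-47680533, minus strand) encodes collagen XVII, also called BP180, whose ectodomain reaches into the basement membrane. It was at 714, 642 and 691 CPM at day 5 and at 957, 653 and 647 CPM at day 7. Mouse 1 stood above the others at day 7, where mice 2 and 3 were at their day 5 range. The log2 fold change of *Col17a1* was 0.14 ± 0.20 (SE, edgeR adjusted p = 0.712), and without day 7 replicate 1 it was -0.071. *Col17a1* counts per *Itgb4* count were 2.00, 1.59 and 1.77 at day 5 and 2.82, 2.56 and 1.66 at day 7, which overlapped (log2 difference 0.37, exact permutation p = 0.3, adjusted 0.36).

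The plakins that link the plaque to keratins did not pass the threshold either. *Dst* (ENSMUSG00000026131, chr1:33946918-34347742, plus strand) gives several proteins, of which BPAG1e is the epithelial form. GENCODE lists 17 coding transcripts of it with 13 separate 3′ ends, and counts per gene do not separate them. *Dst* was at 299, 263 and 262 CPM at day 5 and at 322, 288 and 348 CPM at day 7. It was higher in 3 of 3 mice, and day 7 of mouse 2 lay below day 5 of mouse 1. Its log2 fold change was 0.22 ± 0.18 (SE, edgeR adjusted p = 0.480). *Plec* (ENSMUSG00000022565, chr15:76055174-76116774, minus strand) encodes plectin, which binds β4 and keratin filaments. It was at 230, 219 and 194 CPM at day 5 and at 195, 141 and 244 CPM at day 7. Day 7 held both the lowest and the highest *Plec* value. Its log2 fold change was -0.15 ± 0.21 (SE, edgeR adjusted p = 0.709), and without day 7 replicate 2 it was 0.035. An exon of *Parp10* overlaps *Plec* on the same strand, and GENCODE lists 21 coding transcripts of *Plec* with 5 separate 3′ ends. The *Dst* to *Plec* count ratio was 1.30, 1.20 and 1.35 at day 5 and 1.65, 2.04 and 1.42 at day 7. These ratios did not overlap, with a log2 difference of 0.39 (exact permutation p = 0.1, adjusted 0.2) and the same direction in 3 of 3 mice, from 0.077 in mouse 3 to 0.76 in mouse 2. How often ratios of other gene pairs do not overlap was not computed.

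**Figure D2:**
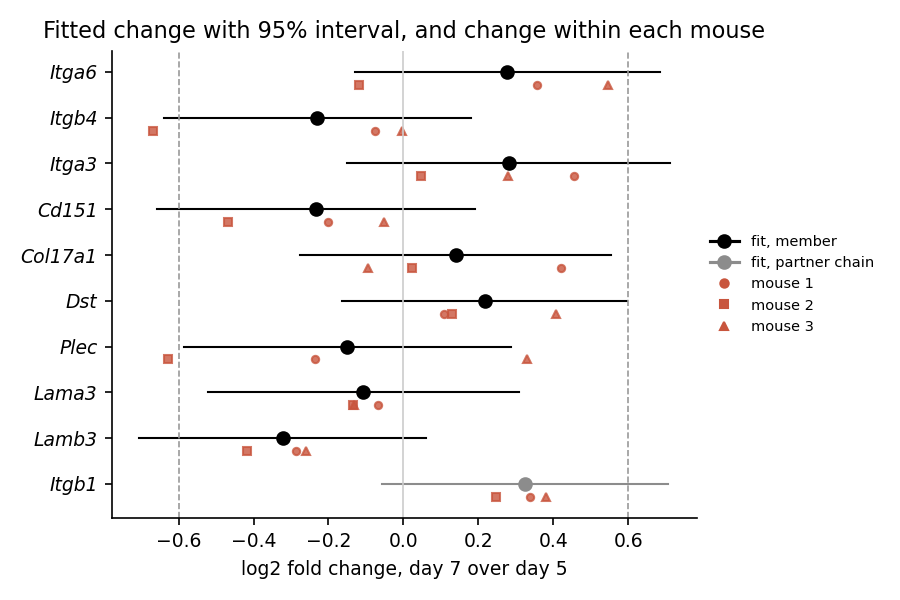
Fitted log2 fold change of day 7 over day 5 with its 95% interval for the 9 genes (black) and the partner chain *Itgb1* (grey), and the change within each mouse (red symbols), with dashed lines at 0.6 in size. The intervals of the 9 genes all cross 0, and that of *Lamb3* runs from -0.71 to 0.062.

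Both laminin-332 chains of the list had lower mean levels at day 7, and neither passed the threshold. *Lamb3* (ENSMUSG00000026639, chr1:192890007-193027705, plus strand) was at 128, 126 and 122 CPM at day 5 and at 105, 93.7 and 102 CPM at day 7. Every day 7 value was below every day 5 value, which held for 1 of the 9 genes in either direction and for 30.9% of all genes tested, 15.5% lower and 15.4% higher. The log2 fold change of *Lamb3* was -0.32 ± 0.18 (SE, edgeR unadjusted p = 0.0948, adjusted p = 0.279), with a 95% interval from -0.71 to 0.062. Its exon overlap with *G0s2* on the other strand leaves a share of its reads uncertain. *Lama3* (ENSMUSG00000024421, chromosome 18, plus strand) was at 156, 140 and 118 CPM at day 5 and at 149, 127 and 108 CPM at day 7. Each mouse was lower at day 7 by less than the gap between mice. The fitted value of *Lama3* was -0.11 ± 0.20 on the log2 scale (SE, edgeR adjusted p = 0.793), and without day 7 replicate 3 it was 0.0016. Its last 500 bases share 428 with the predicted gene *Gm29201* on the same strand, so its counts are uncertain. The *Lama3* to *Lamb3* ratio was 1.22, 1.11 and 0.968 at day 5 and 1.42, 1.36 and 1.06 at day 7 (log2 difference 0.21, exact permutation p = 0.3, adjusted 0.36).

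**Figure D3:**
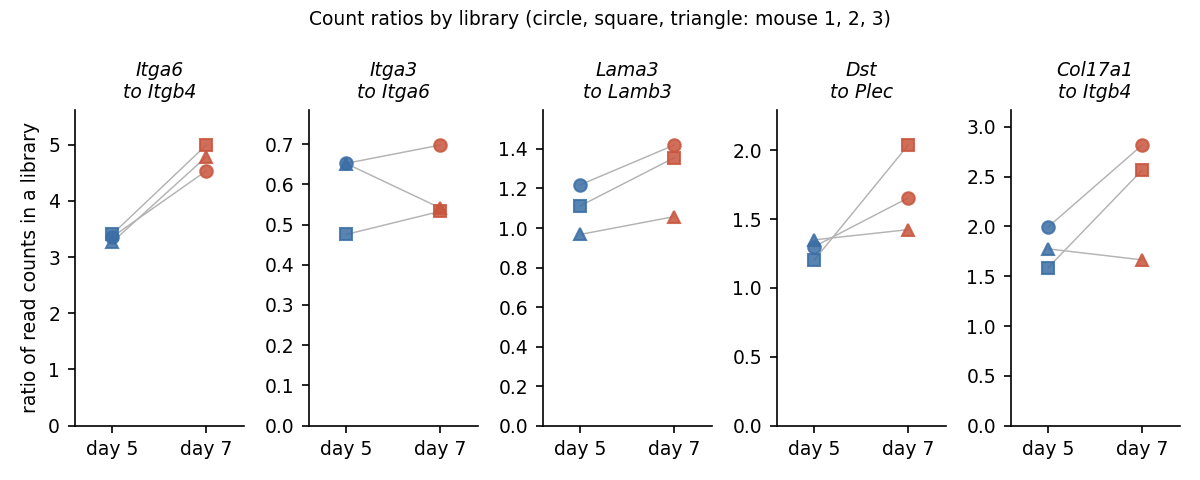
Ratio of read counts of 2 genes within each library (axes start at 0) at day 5 (blue) and day 7 (red), with circles, squares and triangles for mice 1, 2 and 3. The days do not overlap for *Itga6* to *Itgb4* and *Dst* to *Plec*, and overlap for the other 3 ratios. The share of other gene pairs without overlap was not computed.

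The order of the levels was the same at both days: *Itga6*, *Itga3*, *Col17a1*, *Itgb4*, *Dst*, *Plec*, *Lama3*, *Cd151* and *Lamb3*, from the highest to the lowest CPM. This is an order of 3′ reads and not of molecules, since the reads given per molecule were not measured. At day 5 the ranges of *Itga3* and *Col17a1*, of *Lama3* and *Cd151* and of *Cd151* and *Lamb3* overlapped. At day 7 those of *Itgb4* and *Dst* and of *Plec* and *Lama3* overlapped as well. *Itga6* made up 30.2% to 34.8% of the summed CPM of the 9 genes at day 5 and 32.2% to 38.4% at day 7, and *Itgb4* 8.99% to 10.2% and 7.07% to 8.03%.

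The 3 libraries of day 7 lay further apart than those of day 5. The 9 genes together summed to 3984, 3959 and 4019 CPM at day 5 and to 4781, 3599 and 4839 CPM at day 7 in mice 1, 2 and 3. The highest library was 1.05 to 1.32 times the lowest at day 5 and 1.12 to 1.73 times at day 7, and this range was wider at day 7 for 9 of 9 genes. It was wider for 82.6% of the genes with at least 20 CPM, so the wider range was common in these libraries. Mouse 2 was the lowest day 7 library for 7 of the 9 genes, all but *Lama3* and *Col17a1*, where it was the lowest for 25.0% of genes with at least 20 CPM. Of the 2 basal duct markers, *Krt14* was lowest in mouse 2 at day 7 (7468, 4114 and 8049 CPM in mice 1, 2 and 3) and *Krt5* was lowest in mouse 3 (5492, 3850 and 3373 CPM). The part of basal cells in this was not tested. Within mice, 6 of the 9 genes had 1 direction in all 3, as did 44.7% of all genes tested: *Itga3* and *Dst* were higher, and *Itgb4*, *Lama3*, *Lamb3* and *Cd151* were lower.

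The genes whose profile over the 6 libraries was closest to each of the 9 are given by the 2 closest each. Closeness was the root mean square distance of log2 CPM centred on the mean of the 6 libraries, among 6173 other tested genes averaging 20 CPM or more, and it is a description of 6 points. *Itgb4* was closest to *Myh9* (non-muscle myosin IIA heavy chain, distance 0.0431) and *Bmp1* (0.0449), a protease known to process laminin-332 chains. *Itga6* was closest to *Csnk2a2* (0.0275) and *Derl1* (0.0417), and *Dst* to *Strn3* (0.0255) and *Zcchc2* (0.0271). *Lamb3* was closest to *Fubp3* (0.0308) and *Tcf4* (0.0344), and *Lama3* to *Spin1* (0.0653) and *Pcbp1* (0.0657). The pairs for *Itga3* were *Slco2a1* (0.0586) and *Nudt14* (0.0772), for *Col17a1* *Abl2* (0.0510) and *Vps72* (0.0702), for *Plec* *Zfp106* (0.0737) and *Tmtc4* (0.0740), and for *Cd151* *Supt5* (0.0426) and *Gtf2i* (0.0430). None of the 9 genes had another of the 9 among its 2 closest. The closest pair within the list was *Itgb4* and *Plec* (0.124), where *Itgb4* was the gene in place 28 from *Plec*. Seen from *Itgb4*, *Plec* was the gene in place 91.

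Other genes of cell-matrix adhesion were taken from 8 lists with 94 genes, of which 82 were tested. Of these, 12 passed the threshold (14.6%), 10 higher and 2 lower, near the 12.0% over all genes. With the mouse as a block the count was 17, and 14.8% of all genes passed. The median log2 fold change was 0.20, against -0.0073 over all genes tested. Of the 8 other laminin chains tested, 0 passed by edgeR, DESeq2 or limma voom, and 3 had an unadjusted p under 0.05, against 25.8% of all genes. Among the 3 were *Lamb1* (log2 fold change -0.59, edgeR adjusted p = 0.0750) and *Lamb2* (0.62, edgeR adjusted p = 0.150), both named after their values were seen. *Lamb1* passed once the mouse was a term in the fit (-0.63), with an edgeR adjusted p of 0.0448 (0.0361 to 0.759 over its 13 alternatives). Of the 11 other integrin chains tested, 0 passed by the same 3 tools, and 3 had an unadjusted p under 0.05, against 25.8% of all genes. The 3 were *Itgb5* (0.63), *Itgav* (0.66) and *Itga1* (2.04), named after their values were seen. The level of *Itga1* was low, with a mean of 0.378 CPM at day 5 and 1.86 CPM at day 7. *Itgav*, which pairs with β chains other than β4, passed with the block as well (0.63), at an edgeR adjusted p of 0.0461 (0.0257 to 0.633 over its 13 alternatives).

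Of the 14 other basement membrane genes tested, 5 passed, and of the 4 other plakins, 2 did, where 12.0% of all genes did. Whether a list differs from all genes was not tested. *Col4a5* was at 15.3, 9.54 and 13.7 CPM at day 5 and at 39.5, 42.0 and 36.2 CPM at day 7 and rose by 1.60 ± 0.26 on the log2 scale (SE, edgeR adjusted p = 0.000459). It encodes a collagen IV chain of the basement membrane network. *Col4a4* rose by 1.91 on the log2 scale from a mean of 2.91 to 11.0 CPM, and missed the threshold without day 5 replicate 1. *Col7a1*, which encodes the collagen of anchoring fibrils beneath the basement membrane, was at 28.9, 27.1 and 28.8 CPM at day 5 and at 50.6, 50.3 and 71.5 CPM at day 7 (log2 fold change 1.02 ± 0.23 SE, edgeR adjusted p = 0.00585). It missed the threshold without day 5 replicate 2. *Nid1*, which encodes nidogen that links laminin and collagen IV, fell by 1.04 on the log2 scale, from 33.0 ± 12.3 to 16.2 ± 1.94 CPM (SD, n = 3, edgeR adjusted p = 0.0222). It missed the threshold without day 5 replicate 1 or 3 or day 7 replicate 2. In the 6 fits without 1 library, the log2 fold change ran from 1.55 to 2.25 for *Col4a4*, from 0.83 to 1.10 for *Col7a1* and from -1.21 to -0.69 for *Nid1*. The fifth call, *Col4a6*, had a mean under 5 CPM and is named outside the rule for that reason. Among the 4 other plakins tested, 2 that are known from the cornified envelope passed: *Ppl* (periplakin) rose by 1.19 and *Evpl* (envoplakin) by 1.01 on the log2 scale (edgeR adjusted p = 0.000976 and 0.00842). The desmosome plakin *Dsp* (0.47, edgeR adjusted p = 0.116) and *Macf1* (-0.49, edgeR adjusted p = 0.109), named to complete the list, did not pass. *Ppl* passed in all 6 fits without 1 library, and *Evpl* missed the threshold in 3 of them, without day 5 replicate 1 or 3 or day 7 replicate 2 (0.86 to 1.21 over the 6 fits). That these plakins differ from *Dst* and *Plec* was not tested.

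The other 5 calls came from 4 further lists. Of 9 other laminin receptors and tetraspanins, *Sdc4* (syndecan-4) passed (log2 fold change 0.68, edgeR adjusted p = 0.0257), and it held in 1 of the 6 fits without 1 library, that without day 7 replicate 3 (0.57 to 0.80 over the 6). *Sdc4* also missed the threshold with library totals only as scaling. With the mouse as a block 3 of these genes passed, with *Cd82* (0.84) and *Dag1* (-0.65, dystroglycan) in addition, both named after their values were seen. Over the 13 alternatives the edgeR, DESeq2 or limma adjusted p ran from 0.0381 to 0.466 for *Cd82* and from 0.0358 to 0.821 for *Dag1*. Of 4 basal keratins, to which hemidesmosomes anchor, *Krt15* rose from 335, 288 and 424 CPM to 439, 942 and 1245 CPM (log2 fold change 1.32 ± 0.28 SE, edgeR adjusted p = 0.00440). It missed the threshold without day 5 replicate 2 (0.98 to 1.65 over the 6 fits). *Krt5* (-0.49), *Krt14* (-0.24) and *Krt17* (-0.30) did not pass. Of 22 focal adhesion genes, which serve the actin-linked adhesions, *Tns1* (tensin 1) rose by 2.66 on the log2 scale, from 4.19 ± 1.49 to 27.1 ± 2.98 CPM (SD, n = 3, edgeR adjusted p = 2.54e-05), in all 6 fits without 1 library. *Flna* (filamin A) fell by 0.80, from 189 ± 18.3 to 109 ± 31.8 CPM (edgeR adjusted p = 0.0218), and held in 2 of these fits, losing the call without any of the day 5 libraries or without day 7 replicate 2 (-1.01 to -0.59). With the block *Bcar1*, named after its value was seen, passed in addition (-0.80), with adjusted p of edgeR, DESeq2 or limma from 0.0236 to 0.853 over its 13 alternatives. Of 10 proteases that process matrix, 1 passed, *Plat*, which also had a mean under 5 CPM and lies outside the rule. Of the 12 calls in these lists, glmTreat kept 5, in *Col4a4*, *Col4a5*, *Ppl*, *Tns1* and *Plat*, and ended those of *Nid1*, *Col4a6*, *Col7a1*, *Sdc4*, *Evpl*, *Krt15* and *Flna*.

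**Figure D4:**
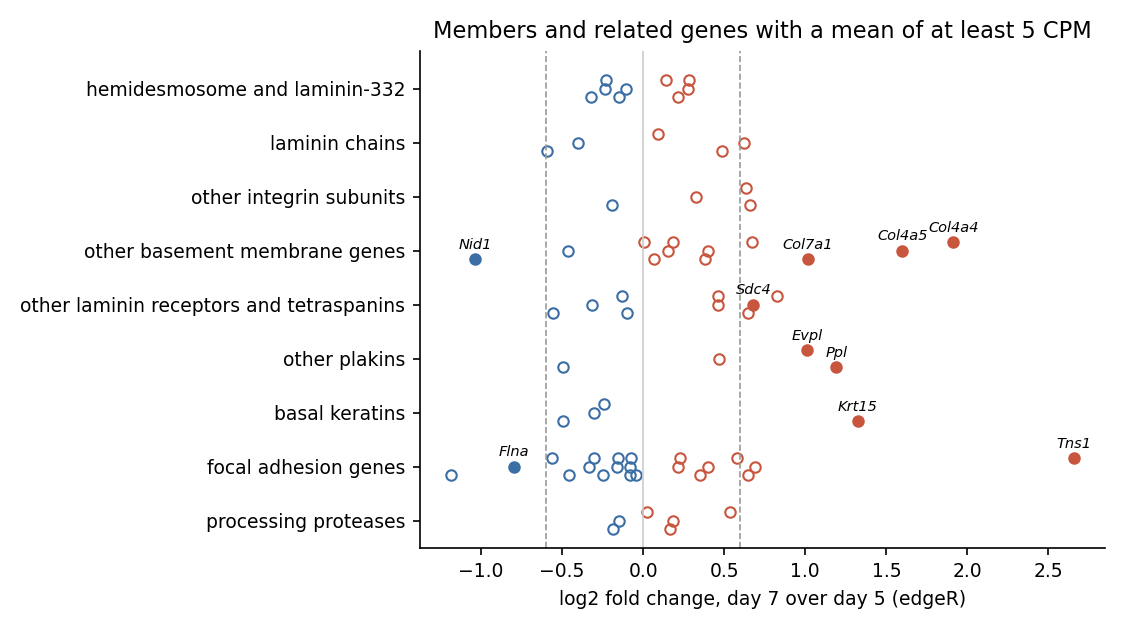
Log2 fold change of day 7 over day 5 for the 9 genes and for those genes of 8 related lists that averaged 5 CPM or more. Each circle is a gene, filled and named where it passed the threshold, blue below 0 and red above, with dashed lines at 0.6 in size. No filled circle stands in the hemidesmosome and laminin-332 row, and the 10 named genes run from *Nid1* at -1.04 to *Tns1* at 2.66.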

How the data were processed

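RNA of mSGOs from 3 mice at day 5 and day 7 was sequenced after library preparation with the QuantSeq 3′ kit (Lexogen), so that reads come from transcript ends. The authors aligned reads to GRCm39 and deposited 1 whole-number read count per Ensembl ID and library, not normalised. The submitters' processing notes name edgeR. The aligner, annotation and strand setting are not given in the sources used here. Entries that name no gene (13.7% to 14.4% of reads at day 5, 9.12% to 9.74% at day 7) were left out. Names and coordinates came from GENCODE vM39 (43465 of 47643 IDs, 91.2%). Counts in genes were 1918198 to 2837397 per library, and a count of 0 allows up to 3 counts, or 1.06 to 1.56 CPM. Reads were counted without molecular identifiers, so such limits cover counting error only. No libraries agreed within sampling noise (smallest chi-square per degree of freedom within a day 2.08).

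The test was run on 15792 of the 18687 genes with any count, those counted in 2 or more libraries (minimum 1). It was the quasi-likelihood F test (two-sided) of edgeR 4.0.16, run in R 4.3.3 after TMM scaling, with no term but day. Benjamini-Hochberg adjustment covered all genes tested, and the thresholds follow the methods of the study. CPM use the TMM-scaled size. DESeq2 1.42.0, limma voom (3.58.1), other scalings, filters and minimum changes, and fits without each library were alternatives. The fit was tested on simulated data, where changed genes were recovered and p-values of unchanged genes were calibrated, but with a spread that varies from gene to gene the share of false calls exceeded its nominal level. Count ratios (0.5 added to each count) were compared by exact permutation and, within mice, by an exact sign-flip test. Same-numbered libraries come from the same mouse, per the titles. Across 8172 genes of at least 10 CPM, their deviations from the day means correlated at 0.137, -0.100 and 0.162 for mice 1, 2 and 3. The main edgeR fit and the permutation treat the libraries as independent, although both days share these 3 mice. Their p-values measure the spread between libraries of a day, in edgeR drawn in part from all genes. Only the replicate block and the sign-flip test use the change within mice.

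The genes and lists were chosen with earlier results of these data known. The text names the 9 genes, *Itgb1*, up to 6 genes per related list that passed the threshold and averaged 5 CPM or more, and for each of the 9 genes the 2 closest profiles (prior count 2). *Eppk1* and *Muc19* were not matched by name. Of the genes, 1 that this rule would name is, like 1 count ratio, not reported here, though both stay in the counts and adjustments.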

Additional observations from a re-analysis of the deposited data

How the results depend on the processing

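The count of hemidesmosome and laminin-332 genes past the threshold was 0 under each of the 13 alternatives with all libraries, the replicate block included (0 of 9), and in the 6 fits without 1 library. At an unadjusted p under 0.05 there was 1 gene with library totals only and 1 without day 7 replicate 2, and there were 4 without day 7 replicate 3. Over all genes tested, such a p was reached by 4151 of 15792, 3362 of 15229 and 4842 of 15400 in these 3 fits. No scaling turned the direction of any of the 9 genes. In the fits without 1 library, 3 of the 9 genes changed sign once: *Lama3* ran from -0.23 to 0.0016, *Col17a1* from -0.071 to 0.24 and *Plec* from -0.35 to 0.035. Of 190 checks on these genes and *Itgb1*, 187 kept direction and side of the threshold.

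Over all genes, glmTreat, which tests against the minimum change itself, called 622, and the fits without 1 library called 797 (without day 5 replicate 2) to 2576 (without day 7 replicate 3). The replicate block called 2340. Over the related lists the counts were 5 with glmTreat, 5 to 20 without 1 library and 17 with the replicate block. The cause of these moves was not tested.

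The *Itga3* to *Itga6* ratio, at -0.0022, had no stable sign: without 1 library it ran from -0.15 to 0.07, with 0.0740, 0.0734, 0.0663 and 0.0550 where it was above 0. Without 1 library the log2 differences ran from 0.48 to 0.55 for *Itga6* to *Itgb4*, from 0.26 to 0.52 for *Dst* to *Plec*, from 0.12 to 0.34 for *Lama3* to *Lamb3* and from 0.22 to 0.60 for *Col17a1* to *Itgb4*. With the replicate block, the exact sign-flip p within mice was 0.25, the smallest that 3 mice allow, for *Itga6* to *Itgb4* (0.51), *Dst* to *Plec* (0.39) and *Lama3* to *Lamb3* (0.21). It was 0.5 for *Col17a1* to *Itgb4* (0.37) and 1 for *Itga3* to *Itga6*. The block changed no call among the 9 genes. At 3 mice a change of up to 1.64-fold in some of the 9 genes lies within the intervals.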
